A study of Homo sapiens with 12 samples.

Results

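The genes described are 10 enzymes of serine, one-carbon and asparagine synthesis, listed by name from the pathways: PHGDH, PSAT1, PSPH, SHMT1, SHMT2, MTHFD1, MTHFD2, ASNS, PCK2 and PYCR1. All 10 were measured, among 11963 genes tested. The cells were MDA-MB-231, an established human breast cancer line that lacks estrogen receptor and has mesenchymal features. They were cultured for 24 h with the solvent DMSO, with SAHA, the histone deacetylase blocker vorinostat, at 5 uM, with pargyline, a monoamine oxidase blocker also used against the histone demethylase LSD1, at 2.5 mM, or with both at these doses. Each of the 4 groups had 3 biological replicates, and RNA of each was hybridised to 1 Affymetrix array. The labels do not say how the cultures were separated, so p-values measure the spread between these arrays. One line at 1 time point and 1 dose of each drug limits the groups as a model. In RNA from a whole culture, fewer cells expressing a gene and less RNA per cell cannot be told apart.

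Cells make serine from the glycolytic intermediate 3-phosphoglycerate by the enzymes PHGDH, PSAT1 and PSPH in turn. The SHMT enzymes split serine into glycine and a one-carbon unit carried on folate, and the MTHFD enzymes interconvert the folate carriers that feed purine and thymidylate synthesis. ASNS makes asparagine, PCK2 makes phosphoenolpyruvate in mitochondria, and PYCR1 makes proline. Several of these genes are textbook targets of ATF4, the transcription factor of the amino acid and integrated stress response.

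The 12 arrays were close in overall brightness, with array medians from 5.15 to 5.38 on the log2 scale and correlations between replicates from 0.9976 to 0.9992 over genes. All 8 markers of MDA-MB-231 cells lay above the median gene level. Their summed log2 levels ranged from 107.4 to 108.0 in DMSO and 107.3 to 107.9 with pargyline, and were lower with SAHA (101.0 to 103.1) and with both drugs (101.5 to 102.8). The markers did not move alike. CD44 had the largest fall, from an average of 13.67 in DMSO to 11.56 with SAHA. VIM averaged 14.9 and 14.88, and LGALS1 14.24 and 14.39, in the same order. The part of the shift in these sums in the changes described was not tested. Of markers that should be absent or low, ERBB2 read 8.28 in DMSO and 5.19 with SAHA, and CDH1 read 2.03 to 2.15. None of 7 measured leukocyte markers and none of 7 fibroblast markers lay above the median level of 7.06. The summed leukocyte markers ranged from 15.3 to 15.5 in DMSO, 15.3 to 15.7 with SAHA, 14.9 to 15.5 with pargyline and 15.0 to 15.3 with both drugs. The summed fibroblast markers ranged from 22.4 to 22.8, 22.6 to 23.0, 22.2 to 22.6 and 22.3 to 22.6 in the same order.

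The promoters of 7 of the 10 genes were found in a RefSeq table of the GRCh38.p14 build, and those of PSPH, SHMT2 and PYCR1 were not. The sequences of 4 genes with differing responses are shown. ASNS was highest with both drugs, and MTHFD1 fell with each. PHGDH and PSAT1 each fell with SAHA and rose with pargyline. The motifs do not set these 4 genes apart, since each of the 7 genes held a motif searched for. Each run is the 250 bases before the start site, 5′ to 3′ on the strand of the gene, with motif matches in capitals. The windows are chr7:97872409-97872658 on the minus strand for ASNS (the second of its 2 listed start sites), chr1:119711684-119711933 on the plus strand for PHGDH, chr9:78296875-78297124 on the plus strand for PSAT1 and chr14:64388103-64388352 on the plus strand for MTHFD1.
ASNS: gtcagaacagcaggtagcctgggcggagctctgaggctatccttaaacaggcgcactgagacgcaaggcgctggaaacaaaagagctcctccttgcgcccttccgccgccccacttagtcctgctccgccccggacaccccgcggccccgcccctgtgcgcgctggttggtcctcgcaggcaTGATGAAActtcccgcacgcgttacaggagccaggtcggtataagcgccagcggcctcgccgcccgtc
PHGDH: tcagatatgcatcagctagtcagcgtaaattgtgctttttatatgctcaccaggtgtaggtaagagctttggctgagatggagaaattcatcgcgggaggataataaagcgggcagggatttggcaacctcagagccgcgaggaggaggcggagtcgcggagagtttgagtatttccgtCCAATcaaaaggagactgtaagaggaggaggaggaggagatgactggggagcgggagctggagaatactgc
PSAT1: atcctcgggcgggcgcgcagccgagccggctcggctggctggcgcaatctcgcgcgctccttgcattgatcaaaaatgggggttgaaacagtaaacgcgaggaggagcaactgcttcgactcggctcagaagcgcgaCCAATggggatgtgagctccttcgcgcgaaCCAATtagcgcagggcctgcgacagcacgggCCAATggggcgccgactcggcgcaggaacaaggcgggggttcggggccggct
MTHFD1: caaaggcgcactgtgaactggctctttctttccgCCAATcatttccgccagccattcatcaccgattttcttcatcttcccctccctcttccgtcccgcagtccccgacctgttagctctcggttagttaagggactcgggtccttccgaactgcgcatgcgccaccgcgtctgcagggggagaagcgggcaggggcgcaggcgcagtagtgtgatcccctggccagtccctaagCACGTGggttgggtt
In ASNS the capitals mark TGATGAAA at positions -68 to -61 before the start site, a match to the ATF and C/EBP core TGATGNAA. In PHGDH they mark CCAAT, the CCAAT box, at -71 to -67. PSAT1 held 3 CCAAT boxes, the first bases of which lie at -113, -83 and -52. In MTHFD1 they mark CCAAT from -216 and the E-box CACGTG at -15 to -10.

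The motifs were searched on both strands of windows of 300 bases, from 250 before to 50 after the start, and their letters do not overlap in the matches found. ASNS alone of the 7 genes held TGATGNAA, which 3.62% of 35116 promoter windows hold. MTHFD1 alone held CACGTG, present in 7.26% of windows. CCAAT occurred in 6 of the 7 genes and in 34.6% of windows. ASNS was searched in 2 windows, of which only the second held TGATGNAA, and each other gene in 1. These are matches of letters and say nothing of binding.

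Levels below are log2 intensities, which compare one gene between arrays and not one gene with another. A gene rose or fell where the Benjamini-Hochberg adjusted p of limma's moderated test, over all 11963 genes, was under 0.05. The error given with a log2 fold change is its standard error, with 3 arrays in each group. Arrays are given in the order of replicates 1, 2 and 3.

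With SAHA, 5 of the 10 genes fell, 2 rose and 3 did not pass. Over all genes, 23.1% fell and 23.0% rose, so change as such was common, at 46.2% of genes against 7 of the 10. The median log2 change was -0.47 over the 10 genes and 0 over all genes. PHGDH, PSAT1, SHMT2, MTHFD1 and MTHFD2 fell, while PSPH and ASNS rose. Counts here take PSPH by its brighter probe set. With pargyline, 6 of the 10 rose, 1 fell and 3 did not pass, where 8.48% of all genes rose, 7.45% fell and 15.9% passed in either direction. The median log2 change was 0.51 against -0.02 over all genes. PHGDH, PSAT1, PSPH, SHMT2, ASNS and PCK2 rose, and MTHFD1 fell. With both drugs, 2 rose (PSPH and ASNS) and 3 fell (SHMT2, MTHFD1 and MTHFD2), where 24.3% of all genes rose, 24.0% fell and 48.3% passed in either direction. The median log2 change was then -0.07, against -0.01 over all genes. The 3 comparisons share the DMSO arrays.

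The scale of the treated arrays bears on these backgrounds, with array medians of 5.24 to 5.38 against 5.15 to 5.20 in DMSO. With each array centred on its own median, the median gene moved to -0.07 in the SAHA comparison, -0.13 in that of pargyline and -0.12 in that of the combination. The split of all genes with pargyline was then 941 higher to 5991 lower, against 1014 to 891 as deposited, and with both drugs 2652 to 6838, against 2903 to 2872. Centring turned the direction of none of the 10 genes that had passed. It also moves dim genes. SHMT1, below the lower tertile of gene levels, then passed at -0.14 with pargyline (limma adjusted p = 0.0142) and -0.12 with both (0.0159).

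**Figure D1:**
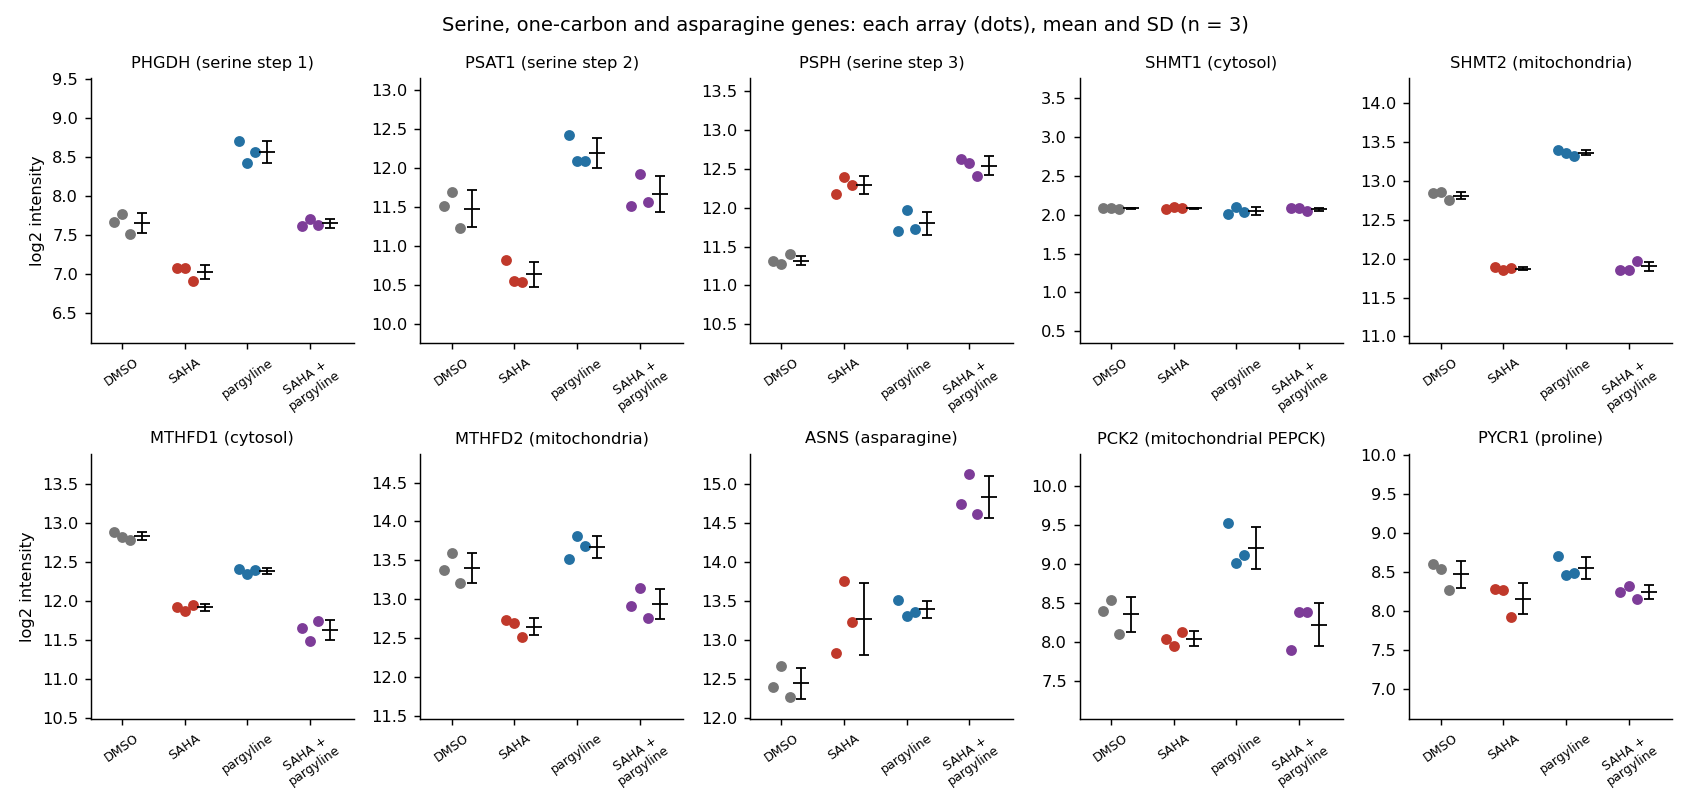
Log2 intensity (vertical axis) of each gene on each of the 12 arrays, by group, with dots for arrays and bars for mean ± SD (n = 3). All panels span the same log2 range. PHGDH and PSAT1 are low with SAHA, high with pargyline and near DMSO with both, while ASNS is highest with both.

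PHGDH, the first enzyme of serine synthesis, read 7.67, 7.77 and 7.51 in DMSO and 7.08, 7.07 and 6.91 with SAHA. It read 8.71, 8.42 and 8.56 with pargyline and 7.61, 7.71 and 7.63 with both drugs. Every SAHA array lay below and every pargyline array above the DMSO arrays, and the combination arrays lay within the DMSO range. PHGDH fell by 0.63 ± 0.09 on the log2 scale with SAHA (limma adjusted p = 0.00018) and rose by 0.91 ± 0.09 with pargyline (adjusted p = 0.000253). With both drugs the difference from DMSO was 0.00, with a 95% interval of -0.19 to 0.20. Between the single drugs, PHGDH was 2.91-fold lower with SAHA. A further probe set, listed for PHGDH together with MZT2A and MZT2B, cannot be assigned to one gene. It changed by -0.70 after SAHA, -0.15 after pargyline and -0.79 after the combination, and the pargyline value did not pass (limma adjusted p = 0.377).

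PSAT1, the aminotransferase that takes the second step with glutamate as donor, read 11.51, 11.69 and 11.23 in DMSO and 10.82, 10.55 and 10.54 with SAHA. With pargyline it read 12.43, 12.09 and 12.09, and with both drugs 11.51, 11.93 and 11.57. Pargyline was highest and SAHA lowest, as for PHGDH, and the combination arrays overlapped those of DMSO. PSAT1 fell by 0.84 ± 0.16 with SAHA (limma adjusted p = 0.00134) and rose by 0.73 ± 0.16 with pargyline (adjusted p = 0.0129). With both drugs the difference was 0.19, with an interval of -0.16 to 0.55. Against SAHA alone, the combination was 1.03 ± 0.16 higher (adjusted p = 0.00264), and against pargyline alone it was 0.53 ± 0.16 lower (adjusted p = 0.0178). The last call was lost with array weights (adjusted p = 0.0731) and without pargyline replicate 1 (0.0706), combination replicate 1 (0.0669) or combination replicate 3 (0.0585).

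On its brighter probe set PSPH, the phosphatase that releases serine in the last step, did not follow PHGDH and PSAT1. This probe set read 11.31, 11.27 and 11.40 in DMSO, 12.17, 12.40 and 12.29 with SAHA, 11.70, 11.97 and 11.73 with pargyline, and 12.63, 12.58 and 12.41 with both. No treated array overlapped the DMSO arrays. PSPH rose by 0.96 ± 0.09 with SAHA (limma adjusted p = 1.21e-05), by 0.48 ± 0.09 with pargyline (adjusted p = 0.00673) and by 1.21 ± 0.09 with both, a 2.32-fold rise (adjusted p = 2.17e-06). The combination and SAHA did not differ past the threshold, at 0.25 with an interval of 0.05 to 0.45 (adjusted p = 0.0923).

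The second probe set of PSPH gave another pattern. It read 9.94, 9.99 and 9.92 in DMSO, 9.07, 9.70 and 9.63 with SAHA, 10.42, 11.09 and 10.52 with pargyline and 9.80, 10.05 and 9.70 with both. Its order across groups was pargyline highest and SAHA lowest, as for PHGDH and PSAT1. In a fit over all probe sets it changed by -0.48 ± 0.20 with SAHA (limma adjusted p = 0.0909), rose by 0.73 ± 0.20 with pargyline (adjusted p = 0.0436) and changed by -0.10 with both (adjusted p = 0.737). The rise with pargyline is thus the only PSPH change against DMSO that passed on both probe sets, and the rises with SAHA and with both drugs rest on the brighter one. With the mean of the probe sets, the change with SAHA was 0.24 and did not pass (limma adjusted p = 0.217). PSPH also has a near-identical pseudogene copy, whose share in either probe set was not tested.

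**Figure D2:**
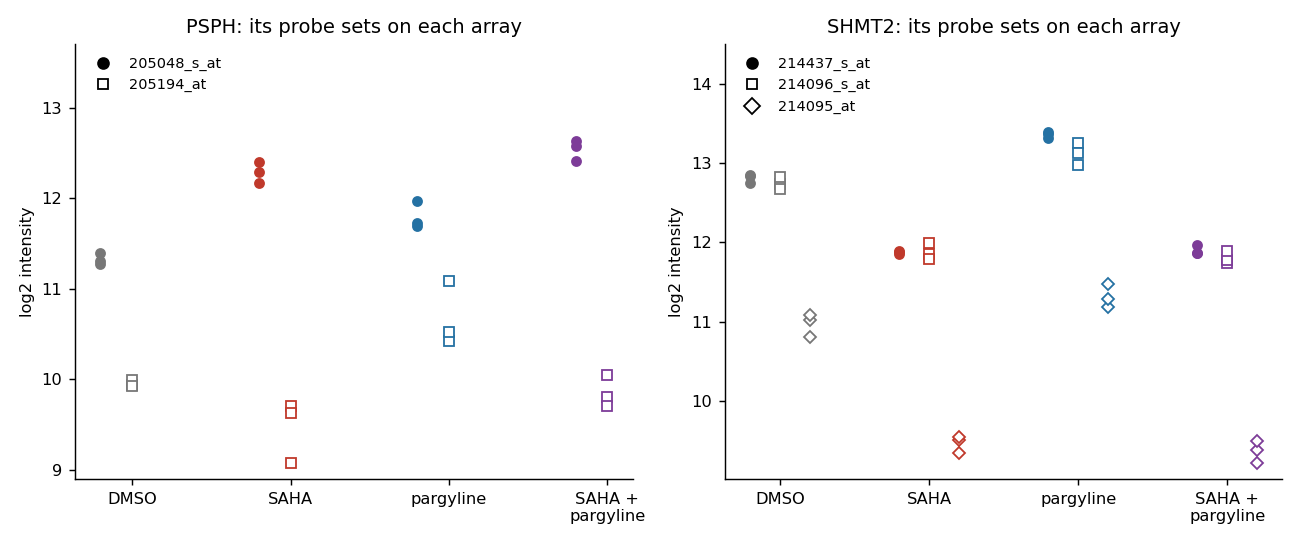
Log2 intensity (vertical axis) of each probe set of PSPH and SHMT2 on each array, by group. Filled circles are the probe set used for the gene and open symbols are the others: those of PSPH part company with SAHA, while those of SHMT2 fall together with SAHA and with both drugs.

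SHMT1, the cytosolic serine hydroxymethyltransferase, read 2.01 to 2.10 on all 12 arrays on the probe set listed for it alone. That is below 2.79, the lower tertile of gene levels, so these values set no change. A brighter probe set is listed for both SHMT1 and the microRNA gene MIR6778 and was not assigned to either here. It read 8.90, 8.91 and 8.99 in DMSO, 8.91, 8.53 and 8.50 with SAHA, 8.47, 8.46 and 8.53 with pargyline, and 8.04, 7.77 and 7.87 with both. All pargyline and combination arrays lay below the DMSO arrays, and the combination arrays were lowest. The probe set changed by -0.28 with SAHA (limma adjusted p = 0.0576), fell by 0.44 with pargyline (adjusted p = 0.0224) and fell by 1.04 with both (adjusted p = 2.18e-05).

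SHMT2, the mitochondrial serine hydroxymethyltransferase, lay on opposite sides of DMSO with the single drugs. It read 12.84, 12.85 and 12.75 in DMSO and 11.89, 11.85 and 11.88 with SAHA. It read 13.39, 13.36 and 13.32 with pargyline and 11.86, 11.86 and 11.97 with both. The groups did not overlap except SAHA with the combination, which lay together at the low end. SHMT2 fell by 0.94 ± 0.04 with SAHA (limma adjusted p = 6.84e-08), rose by 0.54 ± 0.04 with pargyline (adjusted p = 6.63e-05) and fell by 0.91 ± 0.04 with both (adjusted p = 6.96e-08). The combination differed from SAHA by 0.03, with an interval of -0.06 to 0.11. Its other probe sets fell by 0.86 and 1.51 with SAHA and by 0.94 and 1.61 with both. With pargyline they changed by 0.37 (adjusted p = 0.014) and 0.35 (adjusted p = 0.0589), so the second did not pass.

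MTHFD1, the cytosolic enzyme that interconverts several folate carriers, was the only one of the 10 to fall with each single drug and with both. It read 12.89, 12.83 and 12.79 in DMSO, 11.93, 11.88 and 11.95 with SAHA, 12.41, 12.35 and 12.40 with pargyline and 11.65, 11.49 and 11.75 with both. No 2 groups overlapped. It fell by 0.92 ± 0.06 with SAHA (limma adjusted p = 1.16e-06), by 0.45 ± 0.06 with pargyline (adjusted p = 0.00127) and by 1.20 ± 0.06 with both, a 2.31-fold fall (adjusted p = 1.74e-07). The combination was 0.29 ± 0.06 lower on the log2 scale than SAHA alone (combination minus SAHA -0.29, adjusted p = 0.0105), a call lost when these 2 groups were fitted alone (adjusted p = 0.0722).

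MTHFD2, the mitochondrial enzyme often raised in tumours, read 13.38, 13.59 and 13.21 in DMSO and 12.73, 12.70 and 12.52 with SAHA. It read 13.52, 13.81 and 13.69 with pargyline and 12.91, 13.14 and 12.76 with both. Pargyline arrays overlapped DMSO, and all combination arrays lay below DMSO and above SAHA. MTHFD2 fell by 0.75 ± 0.13 with SAHA (limma adjusted p = 0.000655) and by 0.46 ± 0.13 with both (adjusted p = 0.0117). With pargyline it differed by 0.28 ± 0.13 (adjusted p = 0.189). The combination minus SAHA was 0.29 (adjusted p = 0.167).

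ASNS, asparagine synthetase, had the largest change of the 10 genes with both drugs against DMSO. It read 12.39, 12.66 and 12.27 in DMSO, 12.83, 13.75 and 13.23 with SAHA, 13.51, 13.30 and 13.36 with pargyline, and 14.74, 15.13 and 14.61 with both. All treated arrays lay above DMSO, the single drugs overlapped each other, and the combination arrays lay above every other array. ASNS rose by 0.83 ± 0.22 with SAHA (limma adjusted p = 0.0106), by 0.95 ± 0.22 with pargyline (adjusted p = 0.0182) and by 2.38 ± 0.22 with both, a 5.22-fold rise (adjusted p = 9.75e-06). It was 1.55 ± 0.22 higher with both than with SAHA (adjusted p = 0.00204) and 1.44 ± 0.22 higher than with pargyline (adjusted p = 0.000362). The rise with pargyline alone was lost without DMSO replicate 1 (adjusted p = 0.0612), DMSO replicate 3 (0.0544), pargyline replicate 1 (0.0598) or pargyline replicate 3 (0.0529).

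PCK2, the mitochondrial phosphoenolpyruvate carboxykinase, read 8.40, 8.54 and 8.10 in DMSO and 8.04, 7.94 and 8.13 with SAHA. It read 9.52, 9.01 and 9.12 with pargyline and 7.90, 8.38 and 8.38 with both. Pargyline arrays stood above all others, and the other groups overlapped. PCK2 rose by 0.87 ± 0.17 with pargyline (limma adjusted p = 0.00873). It differed from DMSO by -0.31 with SAHA (adjusted p = 0.197) and by -0.12 with both (adjusted p = 0.607). Against pargyline alone, the combination minus pargyline was -0.99 ± 0.17 (adjusted p = 0.000839).

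PYCR1, which makes proline from pyrroline carboxylate, read 8.60, 8.54 and 8.27 in DMSO, 8.28, 8.27 and 7.92 with SAHA, 8.71, 8.46 and 8.49 with pargyline, and 8.25, 8.32 and 8.15 with both. The SAHA and pargyline arrays did not overlap, and DMSO overlapped each group. No change against DMSO passed, at -0.31 ± 0.12 with SAHA (limma adjusted p = 0.0592), 0.08 with pargyline (0.728) and -0.23 with both (0.156). The SAHA value passed in 6 alternative settings. Among them were centred arrays (adjusted p = 0.0189), array weights (0.0186), the replicate number as a block (0.00996) and leaving out DMSO replicate 3 (0.0208). The value with both drugs passed with centred arrays (adjusted p = 0.0242), with array weights (0.0444) and with the replicate block (0.0366). The combination minus pargyline was -0.31 (adjusted p = 0.058). It passed in 6 alternative settings, among them these groups fitted alone (0.0299), without DMSO replicate 3 (0.0398) and without SAHA replicate 3 (0.0261). SAHA minus pargyline was -0.39 (adjusted p = 0.0213), a call lost with quantile normalization (0.0541) and without SAHA replicate 3 (0.0708) or pargyline replicate 1 (0.0824).

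**Figure D3:**
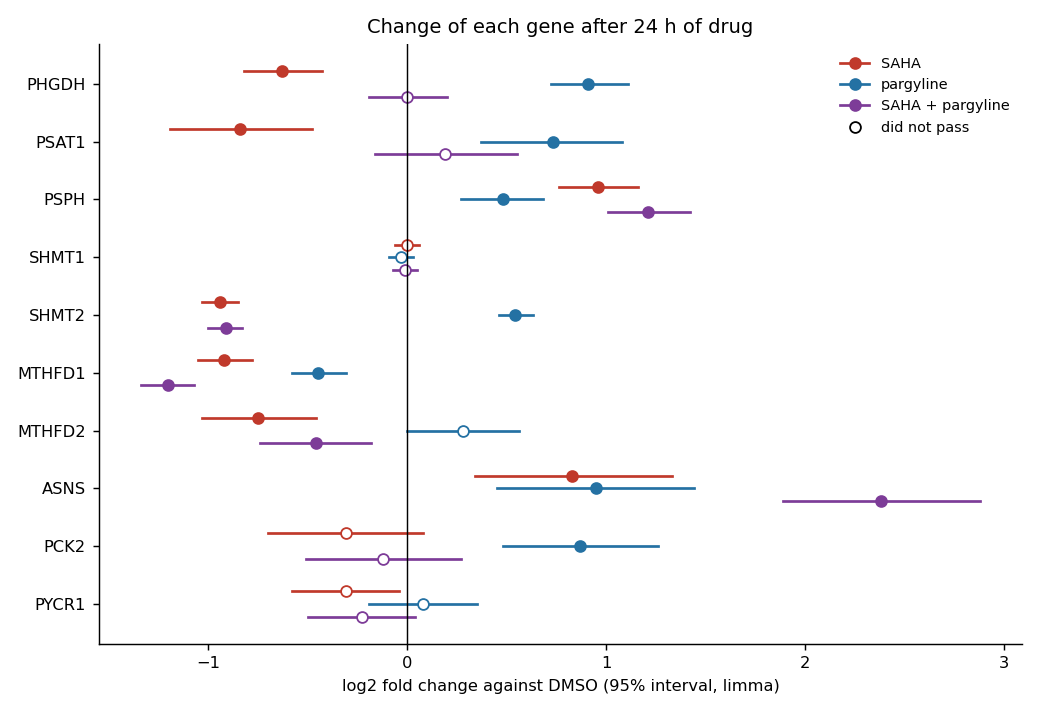
Log2 fold change of each gene against DMSO (horizontal axis) with SAHA, pargyline and both, with 95% intervals from limma. Filled points passed at an adjusted p under 0.05 and open points did not. The SAHA and pargyline points of PHGDH, PSAT1 and SHMT2 lie on opposite sides of 0.

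Put in order, the levels fall into several patterns. PHGDH and PSAT1 were highest with pargyline and lowest with SAHA, and between these the combination and DMSO did not differ past the threshold. SHMT2 ran pargyline, DMSO, combination, SAHA, and MTHFD2 had the same order, in which pargyline and DMSO, and combination and SAHA, did not differ past the threshold. For SHMT2 only combination and SAHA did not. MTHFD1 ran DMSO, pargyline, SAHA, combination, with every step past the threshold. ASNS ran combination, pargyline, SAHA, DMSO, and the single drugs did not differ past the threshold (SAHA minus pargyline -0.12, limma adjusted p = 0.723). On its brighter probe set PSPH ran combination, SAHA, pargyline, DMSO.

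Setting the combination against each drug alone, 3 genes were higher than with SAHA (PHGDH, PSAT1 and ASNS), 1 was lower (MTHFD1) and 6 did not pass. Of all genes, 7.88% were higher, 8.71% lower and 16.6% either, and the median was 0.22 for the 10 genes and -0.02 for all. Against pargyline, 2 were higher (PSPH and ASNS), 6 were lower and 2 did not pass, where 23.9% of all genes were higher, 23.6% lower and 47.5% either. SAHA against pargyline gave 1 higher (PSPH) and 7 lower, where 23.4% of all genes were higher and 22.7% lower. The median was -0.75 against 0.02. PSPH was higher only on its brighter probe set. Its other probe set was lower in both comparisons with pargyline, at -0.83 for the combination (limma adjusted p = 0.00746) and -1.21 for SAHA (0.000787).

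Changes of at least 2-fold were fewer. With SAHA none of the 10 genes reached that size, where 9.39% of all genes rose and 8.75% fell by it, and with pargyline none did, where 1.93% rose and 0.351% fell. With both drugs ASNS and, on its brighter probe set, PSPH rose by it, as did 10.7% of all genes, and MTHFD1 fell, as did 9.76%. PSAT1 and ASNS were at least 2-fold higher with both drugs than with SAHA, a size reached upward by 1.10% of all genes and downward by 0.819%. Against pargyline, the combination was at least 2-fold higher for ASNS (8.95% of all genes) and lower for SHMT2 (9.18%). Between the single drugs, PHGDH, PSAT1, SHMT2, MTHFD2 and PCK2 were lower with SAHA by at least 2-fold, as were 8.86% of all genes, while 8.43% were higher. For the interaction, 0.276% of all genes passed above and 0.92% below the sum by that size, and none of the 10 did.

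The arrays of 2 groups did not overlap for 7 of the 10 genes with SAHA against DMSO, where 52.9% of all genes did not. The count was 7 with pargyline against DMSO (30.8% of all genes) and 5 with both drugs (66.0%). It was 6 for the combination against SAHA (37.6%), 9 against pargyline (53.2%) and 8 for SAHA against pargyline (50.9%).

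The interaction term asks whether the combination differed from the sum of the single-drug log2 changes. It passed for 1 of the 10 genes, SHMT2, below the sum by -0.52 ± 0.05 (limma adjusted p = 0.00213), where 2.44% of all genes passed in that direction, 1.28% in the other and 3.72% in either. The single-drug changes of SHMT2 summed to -0.40, and the combination gave -0.91. Its other probe sets gave -0.45 (adjusted p = 0.0762) and -0.45 (adjusted p = 0.171) and did not pass. The term did not pass for PCK2, at -0.68 ± 0.24 (adjusted p = 0.18), or PHGDH, at -0.28 ± 0.12 (adjusted p = 0.275). For ASNS the term was 0.61 ± 0.31, with an interval of -0.10 to 1.31 (adjusted p = 0.385).

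**Figure D4:**
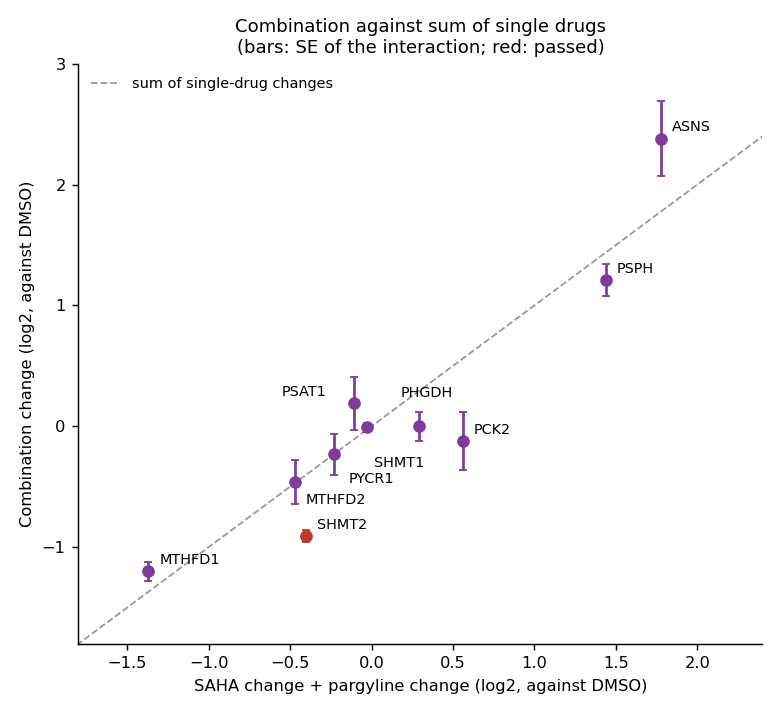
Log2 change with both drugs (vertical axis) against the sum of the SAHA and pargyline changes (horizontal axis), for each of the 10 genes. Bars are the SE of the interaction and the dashed line marks equality. SHMT2, in red, passed and lies below the line, with -0.91 against a sum of -0.40.

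Among neighbouring pathways, purine synthesis, which uses one-carbon units, held no gene that rose against DMSO. Of 11 measured genes, 7 fell with SAHA, 5 with pargyline and 9 with both, by limma. At an unadjusted p under 0.05, 1 rose with SAHA and none with pargyline or both. Of all genes, 23.1% fell and 23.0% rose with SAHA, 7.45% fell and 8.48% rose with pargyline, and 24.0% fell and 24.3% rose with both. These shares are the background of each list count against DMSO here and below. ATIC, which makes the last steps to inosine monophosphate, fell by 1.24 ± 0.09 with SAHA and by 1.41 ± 0.09 with both. Of 12 folate cycle genes outside the 10, 6 fell and 2 rose with SAHA, 2 fell and none rose with pargyline (at an unadjusted p, 4 and 1), and 6 fell and 1 rose with both. FTCD, among those that rose with SAHA, averaged 1.76 in DMSO and 2.05 with SAHA, below the lower tertile level of 2.79. TYMS, thymidylate synthase, read 14.24 to 14.31 in DMSO, 11.30 to 11.70 with SAHA, 14.03 to 14.18 with pargyline and 10.32 to 11.00 with both. It fell by 2.73 ± 0.16 with SAHA and fell by 3.57 ± 0.16 with both. SFXN1, a mitochondrial serine transporter, fell by 1.03 ± 0.06, 0.26 ± 0.06 and 1.13 ± 0.06 with SAHA, pargyline and both.

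ATF4 itself was highest with pargyline and lowest with SAHA, as were PHGDH and PSAT1. It read 12.69, 12.79 and 12.56 in DMSO, 12.04, 12.11 and 11.96 with SAHA, 13.59, 13.31 and 13.30 with pargyline and 13.04, 13.42 and 12.91 with both. All combination arrays lay above DMSO and below the highest pargyline array. ATF4 fell by 0.65 ± 0.13 with SAHA (limma adjusted p = 0.00223) and rose by 0.72 ± 0.13 with pargyline (adjusted p = 0.00602) and by 0.44 ± 0.13 with both (adjusted p = 0.0188). Its combination minus pargyline was -0.28, with a 95% interval of -0.57 to 0.02, and did not pass (limma adjusted p = 0.121). PHGDH and PSAT1 were lower there, at -0.91 and -0.53, the PSAT1 call being lost in 4 alternative settings. With both drugs against DMSO, the 95% intervals were 0.14 to 0.74 for ATF4, -0.16 to 0.55 for PSAT1 and -0.19 to 0.20 for PHGDH. Whether these genes differed from each other in their changes was not tested. Of 19 measured genes of the ATF4 axis, ATF4 and DDIT3 among them, 6 rose and 8 fell with SAHA, 7 rose and 1 fell with pargyline, and 9 rose and 4 fell with both. Their medians were 0.00, 0.63 and 0.41. Of all genes, 46.2%, 15.9% and 48.3% passed in either direction, in the same order. DDIT3, the stress-induced factor CHOP, read 7.78 to 8.48 in DMSO and 9.99 to 11.49 with both, and rose by 2.53 ± 0.33 with both (adjusted p = 0.0001). It differed by 0.27 with SAHA and 0.18 with pargyline, neither of which passed.

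The genes of that list with the largest changes did not share 1 pattern. ATF3, a stress-induced factor, rose by 4.67 ± 0.20 with SAHA, 2.39 ± 0.20 with pargyline and 5.76 ± 0.20 with both. CHAC1, which breaks down glutathione, rose by 2.50 ± 0.50, 2.56 ± 0.50 and 5.80 ± 0.50 in the same order. ATF5, a relative of ATF4, fell by 4.93 ± 0.22 with SAHA and fell by 4.92 ± 0.22 with both, and differed by 0.56 with pargyline (limma adjusted p = 0.136). TRIB3, an ATF4 target that feeds back on it, fell by 2.20 ± 0.31 with SAHA, rose by 1.17 ± 0.31 with pargyline and differed by -0.65 with both (adjusted p = 0.114).

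MYC and NFE2L2 have been reported as regulators of the serine pathway. MYC rose by 1.51 ± 0.22 with SAHA (limma adjusted p = 0.000231) and by 0.89 ± 0.22 with both (adjusted p = 0.00635), and differed by 0.25 with pargyline (adjusted p = 0.545). NFE2L2 differed by 0.06, -0.01 and 0.15, and none passed. EHMT2, a histone methyltransferase also reported as a regulator, fell by 0.65 ± 0.12, 0.40 ± 0.12 and 0.90 ± 0.12 with SAHA, pargyline and both. Of 7 measured genes of this list, which also holds ATF4, 1 rose and 2 fell with SAHA, 1 rose and 1 fell with pargyline, and 3 rose and 2 fell with both. MYCN, among those that fell with both, averaged 2.60 in DMSO and 2.51 with both, below the lower tertile level of 2.79. Of all genes, 46.2% passed in either direction with SAHA, 15.9% with pargyline and 48.3% with both.

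**Figure D5:**
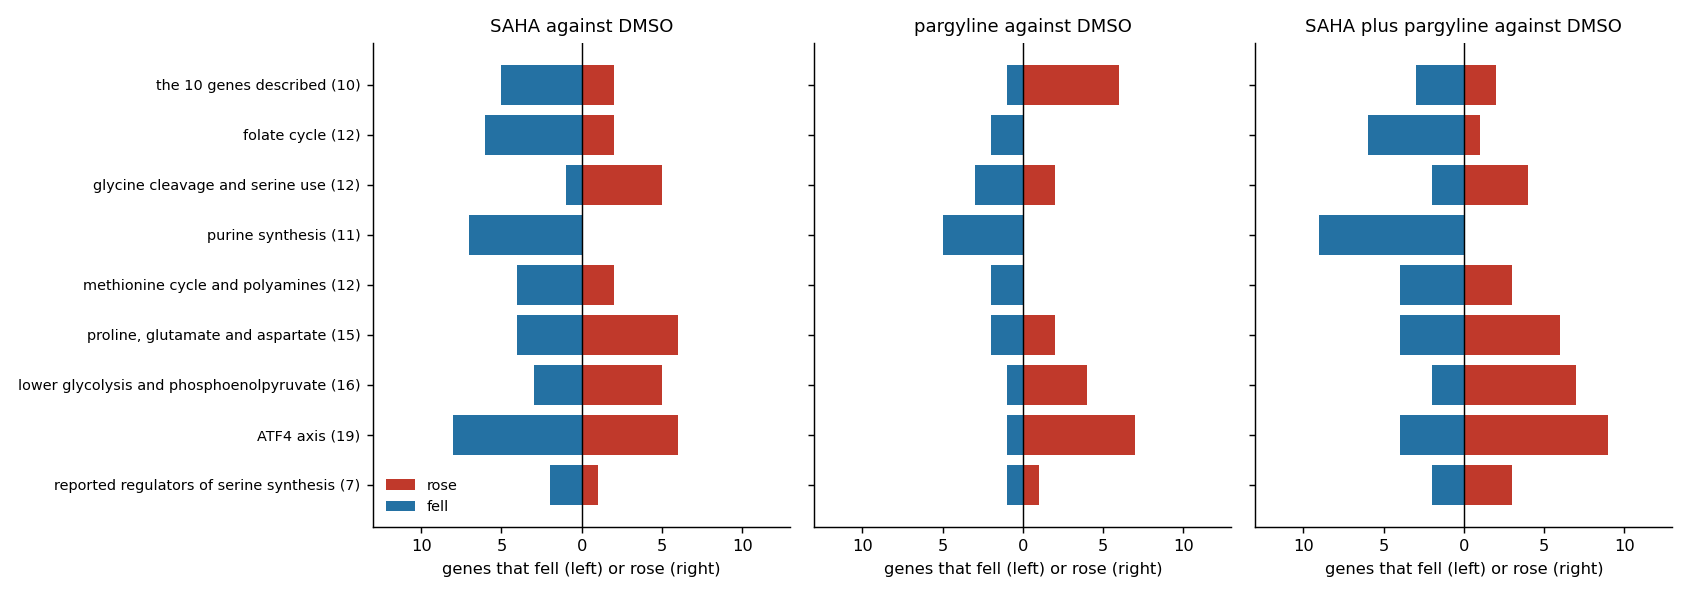
Number of genes (horizontal axis) that rose (right) or fell (left) in each gene list against DMSO, with the number of measured genes in parentheses. Purine synthesis has bars to the left alone, of 7, 5 and 9 genes with SAHA, pargyline and both. The counts include dim genes, FTCD and MYCN among them. Over all genes, 46.2%, 15.9% and 48.3% passed in either direction with SAHA, pargyline and both.

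Over the 12 arrays, the gene most like each enzyme was sought by Pearson correlation. The points share the arrays and the 4 groups, so the values are descriptions. PHGDH was most like GARS1 (0.982), and PSAT1 was like LGALS3BP (0.976), GOLM1 (0.973) and ATF4 (0.970). MTHFD2 was most like CEBPG (0.970), ASNS most like CHAC1 (0.976) and PCK2 most like RUSC2 (0.965). SHMT2 was most like UGDH (0.993), MTHFD1 most like LMNB2 (0.995), PSPH on its brighter probe set most like SARAF (0.991) and PYCR1 most like DDOST (0.966). SHMT1, at the level of the dimmest genes, was most like EIF1AX (0.880).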

How the data were processed

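RNA of 12 cultures was measured on 1 array each. The deposited values are log2 intensities, made by the authors using RMA, per the submitters' processing notes. Its version, and whether the arrays were normalized together, are not given in the sources used here. Of 22277 probe sets, 62 were controls, 19064 named 1 gene, 1043 several and 2108 none. Each of 11963 genes was taken by its brightest probe set, since 4310 genes had more than 1. All 12 arrays entered 1 linear model of group means (limma 3.58.1, R 4.3.3), which left 8 residual degrees of freedom. Tests were two-sided, with Benjamini-Hochberg adjustment over all genes. The fit was tested on simulated data. The number of arrays limits the precision. The median standard error of a difference was 0.077.

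The genes and lists were chosen with earlier results of these data known. The text names all 10 genes, and from each list some of the up to 4 genes that passed in a comparison with the largest change and a highest group mean above the median level, ATF4, DDIT3, MYC and NFE2L2 in any case, and up to 3 genes most like each enzyme. Alternatives were scaling, filters on dim genes, probe sets, the replicate block, array weights, the variance prior, the groups fitted, thresholds and leaving out each array. Promoters came from RefSeq, GRCh38.p14.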

Additional observations from a re-analysis of the deposited data

Results flagged for a closer look

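SHMT2 changed with SAHA by a different amount in the presence of pargyline than in its absence, by the test of the difference itself. The interaction was -0.52 ± 0.05 on the log2 scale (limma adjusted p = 0.00213). SHMT2 rose by 0.54 with pargyline alone, while with SAHA present adding pargyline moved it by 0.03. Both other probe sets of SHMT2 had a negative interaction that did not pass, at -0.45 each.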

How the results depend on the processing

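Each single-gene result was recomputed under at most 22 alternatives. Results newly passed in 20 cases, and in 13 they no longer passed with the sign kept. Of 30 results that had not passed, values changed sign in 11 of 637 cases. Of 40 results that had passed, they did so in 6 of 879 cases, all of PSPH, when its probe sets were used otherwise. With the mean of its probe sets it was -0.05 for the combination against pargyline and -0.36 for SAHA against pargyline, and neither passed. Its dimmer probe set was an alternative chosen after seeing the data. By that probe set PSPH was -0.48 with SAHA and -0.10 with both against DMSO, and neither passed. It passed in the other direction at -0.83 for the combination against pargyline and -1.21 for SAHA against pargyline.

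The number of the 10 genes that passed stayed within 1.5 times in every setting except a fold threshold. Passing with at least a 2-fold change were 0 genes with SAHA, 0 with pargyline, 3 with both, 2 for the combination against SAHA, 2 against pargyline, 5 for SAHA against pargyline and 0 for the interaction. Deviations of same-numbered arrays correlated at 0.08 to 0.53, above 0.1 in 13 of 18 pairs. An array correlated best with its own number in 34 of 36 checks. The main fit did not take the numbers as pairs, so variation shared by a replicate number stays in its error. With the replicate block, the counts (and the share of all genes) were 8 with SAHA (47.8%), 7 with pargyline (19.5%), 6 with both (52.2%), 5 for the combination against SAHA (20.2%), 9 against pargyline (49.1%), 8 for SAHA against pargyline (48.0%) and 1 for the interaction (5.60%). By limma, PYCR1 then passed with SAHA (adjusted p = 0.00996), with both (0.0366) and for the combination against pargyline (0.00981), and MTHFD2 for the combination against SAHA (0.047). On the probe set listed for it alone, dim signal limits SHMT1 to a level with no readable change.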

Other observations

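Enzymes that use serine or handle nitrogen beside these pathways moved in both directions. CTH, which makes cysteine from the serine-derived cystathionine, read 9.14 to 9.61 in DMSO, 10.60 to 10.73 with SAHA, 10.69 to 10.91 with pargyline and 10.80 to 11.05 with both. It rose by 1.24 ± 0.12, 1.40 ± 0.12 and 1.56 ± 0.12, and its interaction was -1.08 ± 0.17 (limma adjusted p = 0.012), below the sum of the single drugs. GCAT, which acts in threonine breakdown to glycine, rose by 1.72 ± 0.11 with SAHA, fell by 0.56 ± 0.11 with pargyline and rose by 1.10 ± 0.11 with both. Of 12 measured genes of glycine cleavage and serine use, 5 rose and 1 fell with SAHA, 2 rose and 3 fell with pargyline, and 4 rose and 2 fell with both. Over all genes, 46.2% passed in either direction with SAHA, 15.9% with pargyline and 48.3% with both.

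BCAT1, the cytosolic branched-chain aminotransferase, fell by 2.93 ± 0.08 with SAHA, rose by 0.27 ± 0.08 with pargyline (limma adjusted p = 0.0402) and fell by 2.08 ± 0.08 with both. Its interaction was 0.57 ± 0.11 (adjusted p = 0.024). ALDH18A1, the enzyme upstream of PYCR1 in proline synthesis, fell by 1.00 ± 0.09 with SAHA, by 0.36 ± 0.09 with pargyline and by 1.49 ± 0.09 with both. Of 15 measured proline, glutamate and aspartate genes, 6 rose and 4 fell with SAHA, 2 rose and 2 fell with pargyline, and 6 rose and 4 fell with both. PC, pyruvate carboxylase, rose by 1.78 ± 0.12 with SAHA and by 2.36 ± 0.12 with both, and differed by 0.28 with pargyline (limma adjusted p = 0.16). Of 16 genes of lower glycolysis and phosphoenolpyruvate, 5 rose and 3 fell with SAHA, 4 rose and 1 fell with pargyline, and 7 rose and 2 fell with both. SRM, spermidine synthase, fell by 1.83 ± 0.13, 0.64 ± 0.13 and 2.26 ± 0.13 with SAHA, pargyline and both. Of 12 genes of the methionine cycle and polyamines, 2 rose and 4 fell with SAHA, and none rose and 2 fell with pargyline (limma, at an unadjusted p 3 and 2). With both, 3 rose and 4 fell. The shares of all genes that passed were 46.2% with SAHA, 15.9% with pargyline and 48.3% with both. A count near its share says nothing particular of a list.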
